A study of Homo sapiens with 12 samples.

Results

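The comparison described here is between HCT116 cells that expressed the CR3 peptide and HCT116 cells that expressed a scramble construct. It takes in every gene with 10 or more reads in at least 3 of the 6 libraries of these groups, which held for 15645 of 63677 identifiers. Of these, 221 had a value whose read number could not be restored with certainty and 15424 were tested. HCT116 is a long-established line of epithelial cells from a human colon carcinoma. The study holds 12 libraries of polyA RNA, 3 for each of 4 genotypes: mCherry (a fluorescent protein, the control), CR3, scramble and reverse. All were treated with doxycycline, the inducer of the constructs, and no library of untreated cells was analysed here. Libraries were made with a stranded kit. The design text speaks of cell clones, so a difference between groups cannot be told apart from a difference between clones. Nothing in the labels says whether the 3 libraries of a group came from separate cultures, so p-values measure the spread between these libraries only, which may be technical.

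CR3 is described by the submitters as a peptide that perturbs condensates. Condensates are assemblies of protein and RNA without a membrane. Some of them gather the Mediator complex, BET proteins and RNA polymerase II at enhancers, and these coactivators sustain the transcription of growth and identity genes in cancer cells. A scramble construct usually keeps the composition of a peptide and changes its order, which makes it a control for sequence. The sequence of neither construct was given in the sources used here.

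Levels are given as normalized reads, the reads of a gene divided by the size factor deposited for the library. Total reads lay between 17420603 and 21157182 in the 3 CR3 libraries and between 20694193 and 22773319 in the 3 scramble libraries. CR3 libraries held 22849 to 23667 genes with a read and scramble libraries 21604 to 21846. Epithelial genes were present in both groups: keratin 18 (KRT18) stood at 11437 ± 1012 (SD, n = 3) in CR3 and 14223 ± 256 in scramble cells, and each of 34 epithelial junction and keratin genes had a read in at least 1 of the 6 libraries. Of 30 intestinal markers 7 were tested, and CDX1, CEACAM6, TFF3, TFF1, FABP1, PHGR1, OLFM4 and CLCA4 had no read in the 6 libraries.

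Markers of other cell types also differed between the groups. Of 25 genes known from embryonic kidney (HEK293) lines, 20 were tested, 14 were higher and 3 lower in CR3, beside 19.6% and 18.8% of all genes tested, and 10 were at least 2-fold higher. Their median log2 fold change was 1.90, and that of all genes was 0.01. Their summed level was 17869 to 20098 in the CR3 libraries and 14871 to 15011 in the scramble libraries, so scramble cells also expressed part of this list. The members absent or nearly absent from scramble and present in CR3 were IRS4, GSTM3, BEX4, CDH2, NEFM, GLI3, INA and PCSK1N. Such members could pass the filter only through CR3, so the counts and the median of this list are partly set by the filter. The same holds for every other list that has such members. Of 34 blood cell markers, 11 were tested and 4 were higher, with a summed level of 2683 to 2932 in CR3 and 1292 to 1363 in scramble. LAPTM5 alone stood at 1326 ± 62.9 in CR3 and 1.54 ± 0.527 in scramble, which is nearly all of that difference. PTPRC, CD48, CD2, MS4A1, TYROBP and HBG1, which mark white or red blood cells, had no read in the 6 libraries. Of 16 endothelial markers, 5 were tested (median -0.016), FLT1 and TIE1 were higher, and PECAM1, CLDN5 and SOX17 had no read. Of 18 melanocyte and hepatocyte markers, 4 were tested (median 0.24), none was higher, 1 was at least 2-fold lower and 7 of the 18 had no read. The part of these marker lists in the results below was not tested. In bulk RNA, fewer cells of a type and less RNA per cell cannot be told apart.

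The 2 groups differed in a large share of the genes, with rises that were large at low levels and falls that were small at high levels. At an adjusted p under 0.05 (limma's trend test on log2 of normalized reads + 1, Benjamini-Hochberg over all genes tested), 5921 genes (38.4%) differed between CR3 and scramble, 3021 higher in CR3 (19.6%) and 2900 lower (18.8%). Among them, 2929 and 2848 had no overlap between the libraries of the groups. Over all genes tested, 25.8% had all CR3 libraries above all scramble libraries and 24.4% had all of them below. The median log2 fold change was 0.52 for the higher genes, -0.31 for the lower ones and 0.01 for all genes tested. A change of at least 2-fold was found for 912 higher genes (5.91% of those tested) and for 53 lower genes (0.344%). Of the 912, 773 averaged under 20 normalized reads in scramble and 26 above 100. Of the 53, only 9 averaged above 100 in scramble. Among the genes tested, 497 averaged at most 3 normalized reads in scramble and could pass the filter only through CR3. All 497 were higher, so the counts, shares and median of the higher genes are partly set by the filter.

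The split between higher and lower genes depended on the scaling. With library totals in place of the deposited size factors, 4580 genes (29.7%) were higher and 1803 (11.7%) lower, the share of higher genes among the calls moved from 51.0% to 71.8%, and the median of all genes moved from 0.01 to 0.11. A fall near 10-fold is also hard to read from these data, because the deposited values had lost their decimal mark: 12 of the 221 genes left out as uncertain had a most likely reading more than 5-fold lower in CR3.

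**Figure D1:**
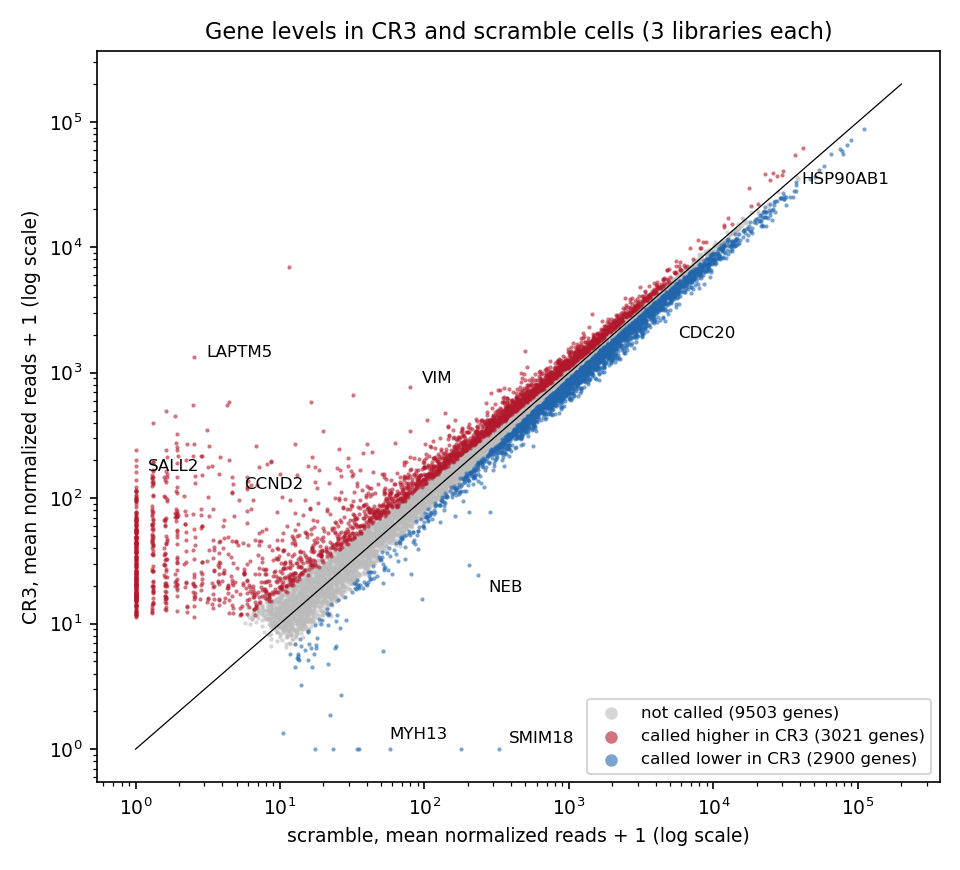
Mean normalized reads + 1 of each of the 15424 genes tested in the 3 scramble libraries (x, log scale) and in the 3 CR3 libraries (y, log scale), with the diagonal of equal levels. Red points are the 3021 genes higher in CR3 and blue points the 2900 genes lower. The red points spread far above the diagonal at low scramble levels, while most blue points lie close under it at high levels.

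The shares changed with the level of a gene in scramble cells. Among genes of 3 to 20 normalized reads, 23.1% were higher and 1.84% lower in CR3. Among those of 100 to 1000 the shares were 19.3% and 15.7%, and among those of 1000 to 10000 they were 12.1% and 34.4%. Above 10000, 163 of 232 genes (70.3%) were lower and 15 (6.47%) higher. Genes under 3 normalized reads in scramble could pass the filter only through CR3, so their 100% carries no information. Part of the class from 3 to 20 could also pass only through CR3, so its shares are partly set by the filter. With classes by the mean of both groups, 19.7% were higher and 16.7% lower from 100 to 1000, 13.7% and 32.8% from 1000 to 10000, and 7.35% and 67.6% above 10000.

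**Figure D2:**
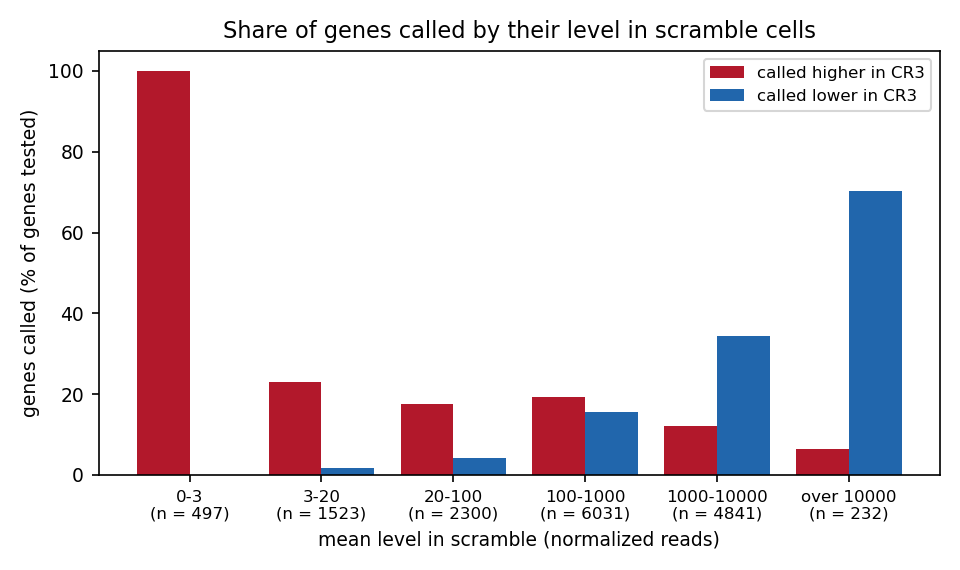
Share of genes tested that were higher (red) or lower (blue) in CR3 (y, percent of genes tested) by mean level in the 3 scramble libraries (x, normalized reads). Lower genes make up 1.84% of the class from 3 to 20 and 70.3% of the class over 10000. The first class, and part of the second, could pass the filter only through CR3.

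The other 2 constructs set these numbers in context, with the caution that all comparisons with CR3 share the CR3 libraries and all with scramble share the scramble libraries. Scramble differed from mCherry in 217 genes (1.41%) and from reverse in 64 (0.415%). CR3 differed from mCherry in 28.9% of the genes and from reverse in 34.1%. Of the 3021 genes higher than in scramble, 1747 were also higher than in both mCherry and reverse, and 561 differed from neither. Of the 2900 lower genes, these numbers were 1728 and 551. In 3 genes higher and 9 genes lower than in scramble, CR3 differed from mCherry in the opposite direction.

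Many large rises were in genes whose reads were few or absent in scramble. LAPTM5 (ENSG00000162511, GRCh38 chromosome 1, 30732469 to 30757820), a protein of late endosomes and lysosomes in blood cells, stood at 1313, 1395 and 1271 normalized reads in the CR3 libraries and at 1.92, 0.935 and 1.75 in the scramble libraries. The log2 fold change was 9.05 (SE 0.35, limma adjusted p = 3.54e-11), and mCherry and reverse averaged 0.356 and 0.647. UCHL1 (ENSG00000154277, chromosome 4, 41256413 to 41268455), a ubiquitin hydrolase abundant in neurons, had 443, 546 and 492 in CR3 and 0, 1.87 and 0 in scramble. With 2 reads in all in scramble, its ratio was 805 (exact 95% counting interval 222 to 6650.5). Intervals of this kind cover counting error only.

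SALL2 (ENSG00000165821, chromosome 14, 21521081 to 21537216), a zinc finger transcription factor of the spalt family, reached 223, 251 and 248.7 in CR3 and had no read in scramble. Set against a floor of 3 reads per library it was at least 87.0-fold higher. RYR2 (ENSG00000198626, chromosome 1, 237042205 to 237833988), the calcium release channel of heart muscle, reached 166, 225 and 216 against no read in scramble, at least 73.0-fold higher. It is a gene for which the choice of comparison group matters, since it averaged 17.4 in mCherry and 1.02 in reverse cells. The CR3 libraries were above all others for both genes.

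NPTX1 (ENSG00000171246, chromosome 17, 80467148 to 80477843), a secreted pentraxin of synapses, had 331, 305 and 336 in CR3 and 0.959, 1.87 and 0 in scramble. GPX3 (ENSG00000211445, chromosome 5, 151020438 to 151028993), the extracellular glutathione peroxidase, had 175, 163 and 202 in CR3 and no read in scramble, at least 64.9-fold higher. GSTM3, a glutathione transferase, averaged 160.5 ± 20.7 in CR3 with no read in scramble, at least 57.9-fold higher. IRS4, an insulin receptor substrate, rose from 1.52 ± 1.36 to 549.8 ± 54.2 (log2 fold change 7.97, SE 0.47). NID1, a basement membrane linker, rose from 3.32 ± 3.1 to 554.3 ± 55.5 (7.41, SE 0.73). LUZP4, a germline gene, and TLE4, a Groucho corepressor, stood at 393.1 ± 15.3 and 274.1 ± 16.5 in CR3 with 1 and 3 reads in all in scramble. The adjusted p of these genes in limma lay between 3.54e-11 (LAPTM5, LUZP4) and 4.42e-07 (NID1), and the groups did not overlap in any of them. When the reads were restored without the group labels, the log2 fold changes of LAPTM5, IRS4 and NID1 became 3.93, 3.89 and 3.16, and none of the 3 was called (adjusted p = 0.151, 0.127 and 0.184).

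A class of genes went from near silence in scramble to clear presence in CR3. With 3 or fewer reads summed over the scramble libraries and 10 or more in each CR3 library, 395 genes met this description, of which 223 had no read in scramble and 354 were protein-coding. The class is cut from the comparison itself, so it is a description and not a test. Their median level in CR3 was 34.5 normalized reads, the highest was that of UCHL1 (493.5), 51 were above 100, and together they took 0.113% of the reads of the CR3 libraries. In mCherry and reverse, 288 of the 395 were nearly silent as well. On chromosome X lay 42 of them (10.6%), where 3.29% of the genes tested lie. The share on X of all genes nearly silent in scramble, a closer comparison, was not computed. Members with high levels, picked after their values were seen, included the axon guidance receptor ROBO1, at 223, 282 and 256 in CR3 and 0.959, 0.935 and 0.877 in scramble. The adhesion molecule CADM1 averaged 241.7 ± 49.8 against 0.924 ± 0.0424, and the protease ADAMTS1 averaged 213 ± 22.7 against 0.639 ± 1.11.

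The opposite class held 9 genes, present in each scramble library and nearly silent in CR3: SMYD1, ENTPD3, HGF, SMIM18, CA1, AC090802.1, SPATA31D5P, MYH13 and BPIFA2. They were at or near 0 in mCherry and reverse too, so here it was the scramble libraries that stood apart from the other 9. SMIM18 (ENSG00000253457), a small membrane protein, had 326, 339 and 312 normalized reads in scramble and no read in the 9 other libraries. Against the floor of 3 reads per library it was at least 113-fold lower in CR3. MYH13 (ENSG00000006788, chromosome 17, 10300865 to 10373130), the myosin heavy chain of extraocular muscle, had 170, 184 and 176 in scramble and none in CR3, at least 61.5-fold lower. SMYD1 (ENSG00000115593, chromosome 2, 88067780 to 88113387), a methyltransferase of striated muscle, had 62.3, 47.7 and 60.5 in scramble and none in CR3, at least 19.8-fold lower.

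The promoters of 2 genes from each side are shown because these genes change from no or nearly no reads to many between the 2 groups. Each is the 250 bases before the annotated start in RefSeq on GRCh38.p14, 5′ to 3′ on the strand of the gene, with capitals at CG pairs and at TATAAA or its reverse complement TTTATA. The windows are chr17:10373007-10373256 (minus strand) for MYH13, chr2:88067575-88067824 (plus) for SMYD1, chr9:79571715-79571964 (plus) for TLE4 and chr19:46471564-46471813 (minus) for PNMA8A, a member of the PNMA family.
MYH13: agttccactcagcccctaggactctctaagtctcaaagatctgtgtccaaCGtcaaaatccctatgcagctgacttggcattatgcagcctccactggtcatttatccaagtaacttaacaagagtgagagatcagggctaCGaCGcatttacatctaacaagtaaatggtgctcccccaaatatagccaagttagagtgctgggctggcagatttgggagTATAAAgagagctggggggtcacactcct
SMYD1: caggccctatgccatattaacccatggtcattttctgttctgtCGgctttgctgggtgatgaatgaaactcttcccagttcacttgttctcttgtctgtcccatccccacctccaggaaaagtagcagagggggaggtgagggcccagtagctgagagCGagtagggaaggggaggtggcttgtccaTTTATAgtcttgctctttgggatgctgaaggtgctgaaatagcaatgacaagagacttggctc
TLE4: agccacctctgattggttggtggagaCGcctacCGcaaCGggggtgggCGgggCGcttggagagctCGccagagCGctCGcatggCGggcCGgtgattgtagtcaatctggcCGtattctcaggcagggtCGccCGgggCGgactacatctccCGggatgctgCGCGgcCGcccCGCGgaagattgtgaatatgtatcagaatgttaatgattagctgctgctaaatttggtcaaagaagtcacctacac
PNMA8A: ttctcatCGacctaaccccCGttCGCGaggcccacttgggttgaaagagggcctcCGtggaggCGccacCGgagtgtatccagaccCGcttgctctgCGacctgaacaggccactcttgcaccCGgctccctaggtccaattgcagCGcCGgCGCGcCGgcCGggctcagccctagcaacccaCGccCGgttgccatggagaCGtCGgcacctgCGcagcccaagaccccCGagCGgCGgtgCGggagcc
MYH13 and SMYD1, present in scramble, held 3 and 2 CG pairs, and TLE4 and PNMA8A, present in CR3, held 20 and 25. The median over all 27305 windows of the table was 11. TATAAA on the strand of the gene occurred 29 bases before the RefSeq start of MYH13, and SMYD1 held it on the other strand. On either strand, TATAAA was found in 11.1% of all windows. These are descriptions of 4 genes picked after their values were seen. By the GENCODE 29 gene coordinates, the windows of MYH13, SMYD1 and TLE4 lie partly inside the gene, so their CG counts can include transcribed sequence. A window was found for 269 of the 389 genes of the silent-to-present class that have a distinct symbol (69.2%), too few for a comparison of the class, which was not made.

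NEB, RASGRF2, IL20RB and ANK1 had large falls and were highest in scramble. In NEB and IL20RB, CR3 differed from neither mCherry nor reverse, while in RASGRF2 and ANK1 it was above both. NEB, which encodes the sarcomere protein nebulin, had 253, 250.5 and 199 normalized reads in scramble and 12.1, 31.6 and 26.6 in CR3, with 13 and 20.9 on average in mCherry and reverse. RASGRF2, an exchange factor for RAS, averaged 201.6 ± 26.9 in scramble, 28.4 ± 3.05 in CR3, 4.57 in mCherry and 5.5 in reverse. IL20RB, a cytokine receptor subunit, averaged 95.2 ± 5.17 in scramble and 14.9 ± 1.79 in CR3, close to 15.6 in mCherry and 17.6 in reverse. ANK1, a membrane skeleton adaptor, averaged 281.6 ± 17.2 in scramble and 76.9 ± 8.82 in CR3, above the 32.8 and 28 of mCherry and reverse. The log2 fold changes were -3.36 (NEB), -2.78 (RASGRF2), -2.6 (IL20RB) and -1.86 (ANK1), with limma adjusted p between 1.02e-07 and 4.84e-06. These falls lie near 10-fold for NEB. Restoring the reads without the group labels, as if all libraries had the same level, gave -0.10, 0.50 and 0.63 for NEB, RASGRF2 and IL20RB.

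In LAMA2, ZBED2 and CDC20P1, CR3 was lower than in all 3 other groups, and scramble differed from neither mCherry nor reverse at the threshold. LAMA2, the laminin alpha chain of muscle basement membrane, had 81.3, 76.3 and 71.2 in CR3 and 199, 220 and 190 in scramble, with 175.8 in mCherry and 132.7 in reverse (log2 fold change -1.4, SE 0.14, limma adjusted p = 3.81e-07). ZBED2, a zinc finger factor, averaged 70.9 ± 8.83 in CR3 and 161 ± 13.3 in scramble, with 135 in mCherry and 114 in reverse. SCG2 and CHRDL1 were highest in scramble. SCG2, a secretogranin of neuroendocrine granules, averaged 24 ± 3.34 against 80 ± 4.55, and 32.8 and 30.1 in mCherry and reverse. CHRDL1, an antagonist of bone morphogenetic proteins, averaged 23.9 ± 1.43 in CR3 and 58.6 ± 3.8 in scramble, and had no read in mCherry or reverse. CDC20P1, a pseudogene of CDC20 whose reads cannot be told apart from those of its parent with certainty, averaged 38.4 ± 10.9 against 89.2 ± 11.7.

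By a stricter count, 16 lower genes and 2 higher genes differed between CR3 and scramble where scramble differed the same way from mCherry and reverse and CR3 from neither. Of the 2 higher genes, the one that met the rule for naming was FOXN3, a forkhead repressor. It averaged 1203 ± 25.4 in CR3, 1186 in mCherry, 1216 in reverse and 1002 ± 28 in scramble (log2 fold change 0.26, SE 0.06, limma adjusted p = 0.00148).

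**Figure D3:**
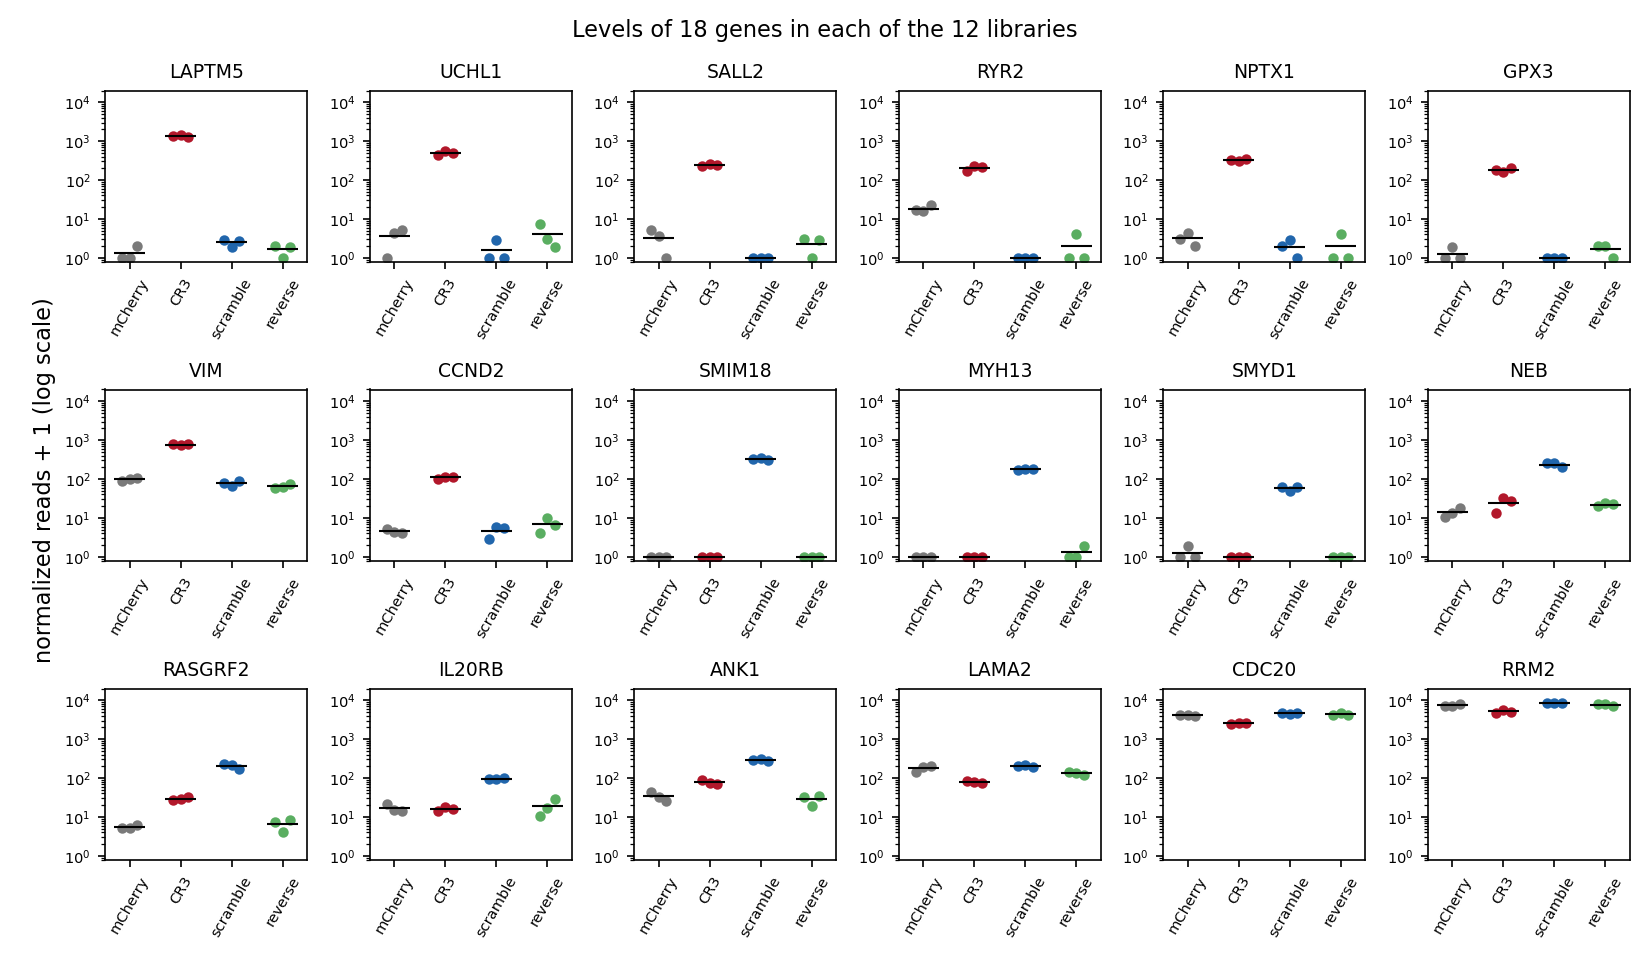
Normalized reads + 1 (y, log scale) of 18 genes in each of the 12 libraries, grouped by construct (x). Points are libraries and lines are group means. The first 8 genes are highest in CR3. SMIM18, MYH13, SMYD1, NEB, RASGRF2, IL20RB and ANK1 are highest in scramble, and LAMA2, CDC20 and RRM2 are lowest in CR3.

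Genes of cell division and DNA replication were lower in CR3. For this and each list below, the shares over all genes tested are 19.6% higher and 18.8% lower. With library totals they are 29.7% and 11.7%. These shares are not matched for level. At 1000 to 10000 normalized reads in scramble 34.4% of genes were lower, and above 10000, 70.3%. Whether a list of abundant genes fell more often than other abundant genes was not tested. All 44 mitotic regulators tested were lower, against 18.8% of all genes, with a median log2 fold change of -0.60, and 42 were lower with library totals. CDC20, which activates the APC/C ubiquitin ligase at anaphase, had 2511, 2660 and 2579 normalized reads in CR3 and 4689, 4465 and 4732 in scramble (log2 fold change -0.84, SE 0.05, limma adjusted p = 2.64e-09). KIF2C, a microtubule depolymerase of the kinetochore, fell by 0.70 and CDC25B, a phosphatase that activates CDK1, by 0.65 on the log2 scale. Every CR3 library was below every scramble library in these 3 genes, and the range of the 44 members ran from CDC20 to CENPE at -0.28. The CR3 levels were also under those of mCherry (4131 for CDC20) and reverse (4354).

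Of 50 DNA replication and G1/S genes, 44 were lower and 1 was higher (median -0.41). MCM7 and MCM3, subunits of the replicative helicase, fell from 7793 ± 254 to 5117 ± 59.9 and from 5687 ± 108 to 4039 ± 74.8. The exception was CCND2 (ENSG00000118971, chromosome 12, 4273772 to 4305350), cyclin D2, with 101, 113 and 112 in CR3 and 1.92, 4.67 and 4.38 in scramble (log2 fold change 4.61, SE 0.34, limma adjusted p = 1.48e-08). Among 35 homologous recombination and Fanconi genes, 20 were lower and 1 was higher (median -0.31). FANCA fell from 1734 ± 75.9 to 1184 ± 57.4, and FANCD2 by 0.43 on the log2 scale. The higher member was DMC1, a recombinase of meiosis, at 51.8 ± 9.01 against 6.18 ± 2.05, and without the group labels in the restoration its log2 fold change became -0.22. Of 25 cohesin and condensin genes, 14 were lower and 1 higher (median -0.28), the condensin subunits NCAPH, NCAPG2 and NCAPD2 by 0.66, 0.60 and 0.45.

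Enzymes of nucleotide synthesis, translation factors and tRNA synthetases were more often lower than higher. Over all genes tested, 19.6% were higher and 18.8% lower. At 1000 to 10000 normalized reads in scramble, 34.4% were lower, and above 10000, 70.3%. These lists hold abundant genes and were not matched for level, so whether their falls exceed those of other abundant genes was not tested. Of 30 nucleotide synthesis enzymes, 23 were lower and 1 was higher (median -0.32). RRM2, the regulated subunit of ribonucleotide reductase, had 4750, 5525 and 5122 in CR3 and 8660, 8416 and 8594 in scramble. PAICS, of purine synthesis, fell from 9658 ± 158 to 6381 ± 306, and TYMS, thymidylate synthase, from 4481 ± 84.5 to 2769 ± 179.5. Of 47 translation initiation and elongation factors, 33 were lower and 2 higher (median -0.22), with EIF5A falling from 21622 ± 590 to 14948 ± 225 and EIF4G3, a scaffold of the cap complex, rising from 1957 ± 75 to 2678 ± 60.4. Of 40 aminoacyl-tRNA synthetases, 23 were lower and 1 higher (median -0.18), with KARS, IARS and AARS at -0.46, -0.42 and -0.33. Of 17 polyamine genes, 7 were lower and none higher (median -0.13), with ornithine decarboxylase (ODC1) falling from 9585 ± 275 to 6642 ± 337. With library totals all 4 medians stayed below 0, and the polyamine genes became 4 higher and 5 lower.

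Within amino acid and redox metabolism the members went both ways, as did all genes tested (19.6% higher and 18.8% lower, and 29.7% and 11.7% with library totals). Of 28 serine, one-carbon and transsulfuration enzymes, 7 were higher and 11 lower (median 0.01), and 9 and 6 with library totals. CBS, which makes cystathionine, stood at 579.5 ± 35.1 in CR3 and 3.44 ± 2.39 in scramble (not called without the group labels in the restoration, 2.97), while MTHFD1L, of the mitochondrial folate pathway, fell by 0.63 on the log2 scale. Of 34 glutathione enzymes and NRF2 targets, 5 were higher, among them GPX3 and GSTM3, and 13 lower, among them NQO1, a quinone reductase, at 5637 ± 69.2 against 8173 ± 376.5. The median of that list was -0.08, and 0.01 with library totals, where 8 were higher and 13 lower. Of 36 amino acid and glucose transporters, 10 were higher and 10 lower (13 and 8 with library totals), with SLC6A15 and SLC2A10 at 134.5 ± 1.78 and 56.1 ± 6.15 in CR3 and at 2 reads and 1 read in all in scramble. SLC38A5, a glutamine transporter, fell from 1083 ± 31.6 to 650.5 ± 7.17. Of 22 genes of fatty acid synthesis, 5 were higher and 7 lower, and 7 and 3 with library totals. ELOVL4 and ELOVL2, which lengthen very long chain fatty acids, averaged 105.7 ± 18 and 74.1 ± 9.02 in CR3 with 0 reads and 1 read in all in scramble, and ACSL5, an acyl-CoA synthetase, fell by 0.54. Of 27 cholesterol genes, 3 were higher and 9 lower, with a median of -0.07. With library totals, 6 were higher and 3 lower and the median was 0.02.

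The most abundant transcripts were split between the nuclear and the mitochondrial genome. By difference of mean normalized reads, the 8 largest falls were in HSP90AB1, EEF1A1, HSP90AA1, ACTG1, GAPDH, PKM, HSPA8 and ENO1, which encode chaperones, a translation factor, an actin and glycolysis enzymes. HSP90AB1 had 54693, 56746 and 53139 in CR3 and 80387, 78908 and 78410 in scramble (log2 fold change -0.53, SE 0.05, limma adjusted p = 2.35e-07). GAPDH had 77835, 68303 and 69045 against 91212, 86631 and 90511 (-0.32, SE 0.07, adjusted p = 0.00127). All 8 stayed below 0 with library totals, from -0.22 for PKM to -0.44 for HSP90AB1.

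The 8 largest rises by difference were all mitochondrial: MT-ND4, MT-CO2, MT-CYB, MT-CO1, MT-ND5, MT-CO3, MT-ATP6 and MT-ND2, subunits of the respiratory chain and ATP synthase. MT-CYB had 43355, 35519 and 35539 in CR3 and 25832, 19221 and 22774 in scramble (log2 fold change 0.76, SE 0.09, limma adjusted p = 6.05e-06), and averaged 37001 in mCherry and 26377 in reverse. MT-ND4 averaged 61556 ± 3221 in CR3, 41847 ± 6245 in scramble, 65262 in mCherry and 51389 in reverse. The CR3 level was thus near that of mCherry, and the scramble level was the lowest of the groups in both genes. Of 20 genes of the mitochondrial genome tested, 14 were higher and none was lower. 

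Mediator subunits and the list of BET proteins, acetyltransferases and elongation kinases had smaller shares called in each direction than all genes tested (19.6% and 18.8%) with the deposited size factors, though not with library totals in the second list. Of 33 Mediator subunits, 5 were higher and 4 lower, and 9 and 1 with library totals. MED30 fell from 336.8 ± 42.3 to 238.9 ± 4.85, MED12L rose from 372.5 ± 29.4 to 529.3 ± 55.5 and MED23 from 1083 ± 25 to 1299 ± 53.9. Of 39 BET proteins, acetyltransferases and elongation kinases, 6 were higher and 6 lower, and 17 and 1 with library totals. KAT2B, an acetyltransferase, rose from 473.3 ± 6.05 to 722.8 ± 17.9, AFF4, a scaffold of the super elongation complex, from 3079 ± 75.4 to 3758 ± 159, and CDK7, a kinase of TFIIH, fell from 1378 ± 84.6 to 1086 ± 27.8. Of 29 polycomb subunits, 5 were higher, including CBX7, and 6 lower, including EZH2 and PHF19 at -0.39 and -0.62. Of 26 SWI/SNF subunits, 4 were higher and 5 lower. Of 22 DNA methylation genes, 5 were higher and 6 lower. DNMT1, the maintenance methyltransferase, fell from 7013 ± 115 to 5299 ± 281, TRIM28, a corepressor of zinc finger proteins, from 16513 ± 678 to 12933 ± 645, and ZBTB33, a reader of methylated DNA, rose from 1015 ± 44.4 to 1414 ± 77.3. The medians of the Mediator, polycomb and SWI/SNF lists lay between -0.04 and -0.01 and turned positive with library totals, where polycomb subunits became 8 higher and 2 lower, SWI/SNF subunits 6 and 3 and DNA methylation genes 9 and 4.

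Families of mostly X-linked genes and germline genes held large rises. Of 16 tested members of the BEX, TCEAL, ARMCX, PNMA and GPRASP families, 11 were higher and none lower (median 0.37). PNMA8A had 173, 196 and 215 normalized reads in CR3 and 1 read in all in scramble, a 630-fold ratio (95% counting interval 112.6 to 24913). BEX4 averaged 267.1 ± 36.2 against 1.27 ± 1.47, and TCEAL1, a regulator of elongation, 68.3 ± 3.18 against no read, at least 24.7-fold higher. Of 46 cancer-testis and germline genes, 11 were tested, 5 were higher and 2 lower. MAGEA6 rose from 3.45 ± 2.83 to 201.6 ± 4.65 and LIN28B, which blocks let-7 maturation, from 7.08 ± 1.97 to 186 ± 13.4. The MAGEA6 call was lost without the group labels in the restoration (log2 fold change 0.63). MAGE genes are near-identical copies, so their reads may be split between copies. GAGE1, PAGE1, SSX2 and 12 further members had no read in the 6 libraries. Of 16 imprinted genes, 3 were higher, among them ZDBF2 (0.64), and 5 lower, among them PEG10 (-0.65) and MEST (-0.47).

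Developmental transcription factors rose more often than they fell. Of 29 HOX genes, 14 were higher and 4 lower (median 0.36). HOXD13 had 114, 145 and 135 in CR3 and 3.84, 0 and 0.877 in scramble, HOXD10 averaged 73.5 ± 5.89 against 0.896 ± 0.877 and HOXD11 37.7 ± 12.5 against 2.21 ± 1.99, 3 neighbours on chromosome 2. Of 40 SOX, FOX, GATA, PAX and LIM homeobox factors, 15 were higher and 4 lower (median 0.26). GATA4, a factor of heart and endoderm, averaged 59.3 ± 10.4 with no read in scramble, at least 21.4-fold higher. FOXF2, a forkhead factor, averaged 81.6 ± 22.3 with 3 reads in all in scramble. Among the intestinal markers, SOX9 fell from 457.4 ± 20.5 to 340.2 ± 45.8.

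Most epithelial genes were not called, and most mesenchymal markers tested were higher. Of 32 epithelial junction and keratin genes, 2 were higher and 11 lower (median -0.10), with KRT23 falling from 172.4 ± 9.62 to 107.5 ± 5.77 and ESRP1, an epithelial splicing factor, by 0.26 on the log2 scale. With library totals, 5 were higher and 7 lower, and the median was -0.0057. Of 18 mesenchymal and fibroblast markers, 15 were higher and 2 lower (median 0.69). Vimentin (VIM) had 771, 731 and 792 in CR3 and 76.7, 66.4 and 90.3 in scramble, with 97.4 in mCherry and 64.8 in reverse (log2 fold change 3.29, SE 0.14, limma adjusted p = 8.48e-11). That ratio is close to 10. Without the group labels in the restoration, which then assumed the same level for all libraries, the log2 fold change became -0.015. N-cadherin (CDH2), also among the embryonic kidney genes, averaged 129.8 ± 13.9 with 1 read in scramble. ACTA2, smooth muscle actin, rose from 137.7 ± 12.8 to 475.4 ± 15.5, a call that was also lost there (0.69). The embryonic kidney genes, VIM and CDH2 among them, moved with the mesenchymal list, and their part in it was not tested.

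Of 23 laminin, collagen IV and nidogen genes, 14 were higher and 2, LAMA2 and LAMB3, were lower (median 0.32). COL4A2 and COL4A1, which share a promoter region on chromosome 13, averaged 350.2 ± 27 against 2.1 ± 2.2 and 136.1 ± 8.17 against 4.97 ± 2.34, and NID2 averaged 70.1 ± 16.3 with 3 reads in scramble. Without the group labels in the restoration, COL4A2 and COL4A1 stood at 3 and 0.45 and were not called. Of 19 integrins, 6 were higher and 2 lower, beside 19.6% and 18.8% of all genes tested. ITGAX rose from 289.6 ± 30.3 to 685.3 ± 26.7 and ITGA4 averaged 42 ± 2.98 with no read in scramble, at least 15.2-fold higher. ITGA6, which binds laminin in epithelia, fell from 2021 ± 51.8 to 1316 ± 43.8. Of 19 S100 proteins and annexins, 13 were lower and none higher (median -0.28). ANXA1 had 4651, 4838 and 4680 in CR3 and 7675, 7860 and 8292 in scramble, S100A10 fell from 1539 ± 64.3 to 892.6 ± 43.5 and ANXA2 from 13522 ± 558 to 9418 ± 153.5.

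Of 17 neuron and neuroendocrine markers, 11 were higher and 4 lower (median 0.46). NEFM, a neurofilament, averaged 147.7 ± 28.7 with 3 reads in scramble, and TUBB2B, a neuronal tubulin, rose from 24.7 ± 6.72 to 245.4 ± 26.5. The TUBB2B ratio is close to 10, and its log2 fold change of 3.29 became 0.02 without the group labels. ELAVL4 and GNG3, which mark neurons, had no read in the 6 libraries.

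Signalling lists held genes of both directions, with more higher than lower in the Notch, Wnt and insulin lists. Over all genes tested, 19.6% were higher and 18.8% lower, and 29.7% and 11.7% with library totals. Of 28 Notch pathway genes, 11 were higher and 2 lower (median 0.13), and 14 and 1 with library totals. The target HEY1 had 252, 274 and 279.5 in CR3 and 12.5, 10.3 and 12.3 in scramble, the receptor NOTCH3 rose from 1136 ± 81 to 1578 ± 120 and the ligand JAG1 fell from 931.9 ± 44.5 to 661.7 ± 4.28. Of 31 Wnt ligands, receptors and antagonists, 9 were higher and 4 lower (median 0.21), and 13 and 2 with library totals. WNT5A averaged 59.3 ± 16.6 against 3.04 ± 1.25 (not called without the group labels, 0.99), while WNT16 fell from 588.8 ± 44.5 to 344.3 ± 34.5 and the antagonist DKK1 from 9149 ± 232 to 7347 ± 181. Of 18 genes of the insulin and IGF axis, 9 were higher and 5 lower (median 0.21), and 10 and 5 with library totals. IGF2BP1, an RNA-binding protein of fetal tissues, rose from 30.9 ± 10.6 to 661.5 ± 72.4, and IRS1, the main insulin receptor substrate of epithelia, fell from 2672 ± 31.5 to 1668 ± 45.2, opposite to IRS4.

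Of 26 FGF genes, 4 were higher and 9 lower (7 and 5 with library totals), with FGF13 at 64.6 ± 8.27 against no read (at least 23.3-fold higher), ETV1 falling by 0.48 and DUSP5 by 0.36 on the log2 scale. Of 17 genes of the EGF family, 3 were higher and 4 lower, near the 19.6% and 18.8% of all genes tested. With library totals, 5 were higher and 3 lower, beside 29.7% and 11.7% of all genes tested. Among the 4 lower genes were the receptor EGFR (from 1788 ± 92.4 to 1412 ± 117), its inhibitor ERRFI1 and its ligand EREG. The medians of these 2 lists were -0.06 each and 0.03 with library totals. Of 34 interferon response and MHC class I genes, 16 were higher and 1, OAS3, lower (median 0.28). BST2, which tethers virions, rose from 9.17 ± 2.01 to 29.3 ± 4.3, and HLA-B, whose reads may be shared with other HLA genes, from 5474 ± 182 to 7078 ± 670.

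Of 34 ATF4 and unfolded protein response genes, 3 were higher and 16 lower (median -0.15), with HSPA5, the ER chaperone BiP, falling from 20275 ± 487 to 17062 ± 303. With library totals, 6 were higher and 5 lower. Of 34 CDK inhibitors and p53 targets, 11 were higher and 3 lower (median 0.05). SESN2 rose from 526.4 ± 21.9 to 878.3 ± 62.2, TP53INP1 from 994.5 ± 61.8 to 1450 ± 50.5, and SPATA18, a mitophagy gene, from 4.89 ± 1.86 to 118 ± 2.36, the last not called without the group labels in the restoration (1.33). Of 19 BCL2 family genes, 4 were higher, including the death effector BAX (0.29), and 2 lower, BCL2L1 and BID (-0.35 and -0.28). Over all genes tested, 19.6% were higher and 18.8% lower. Of 26 ABC transporters, 10 were higher and 8 lower (14 and 6 with library totals): ABCA3 rose from 320.4 ± 25 to 726.4 ± 64.9, and the drug and bile salt exporters ABCC2 and ABCC3 fell by 0.77 and 0.98.

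**Figure D4:**
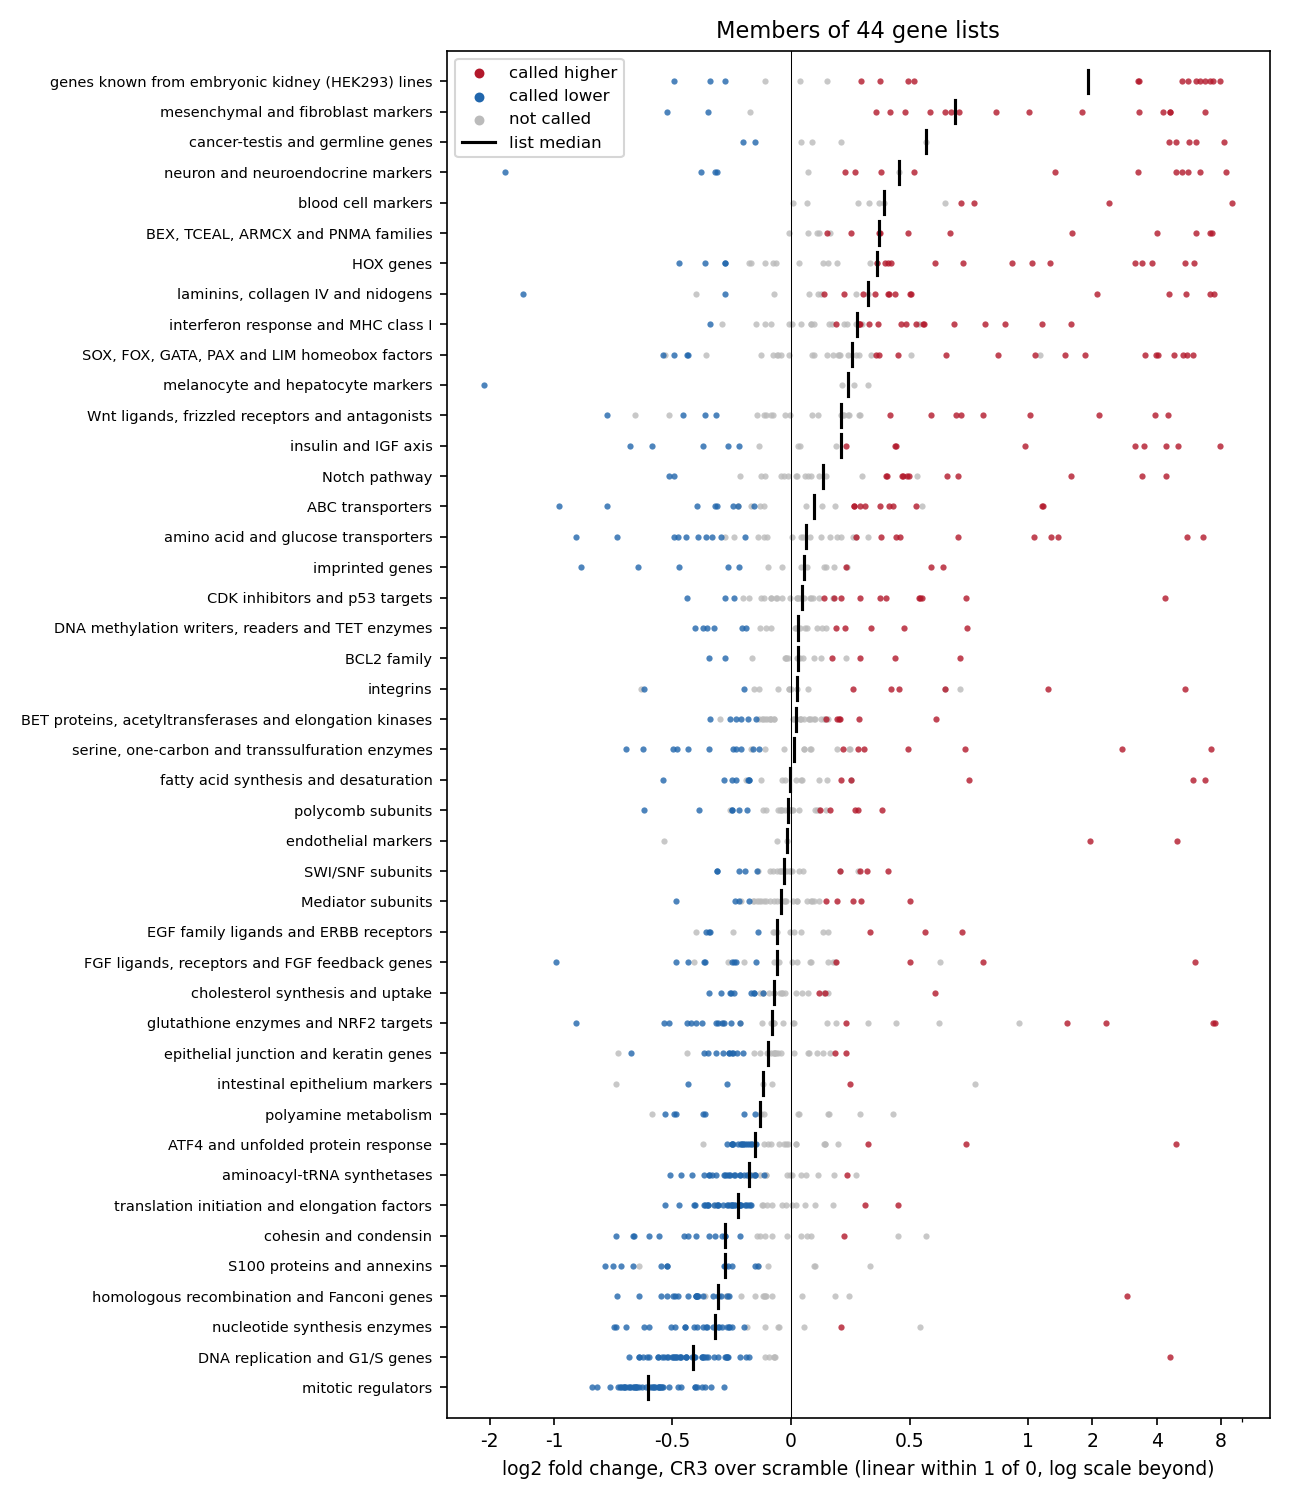
Log2 fold change of CR3 over scramble (x, linear within 1 of 0 and log scale beyond) for the tested members of 44 gene lists (y, ordered by median). Red points are higher, blue points lower and grey points not called, and black bars are list medians. All mitotic regulators lie left of 0, and the lists at the top hold single members far to the right.

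Several noncoding RNA genes had reads in CR3 and none in scramble. Of 454 lincRNA genes, 59 were higher and 30 lower, and of 586 antisense genes 77 and 35, beside 2753 and 2738 of 13122 protein-coding genes. LINC02381 (chromosome 12, 54126098 to 54142493), which lies in the HOXC region, had 85.9, 95.6 and 114 in CR3 and no read in the 9 other libraries, at least 35.5-fold higher than scramble. NNT-AS1 averaged 54.7 ± 12.6 with no read elsewhere (at least 19.7-fold higher), and HCG11 averaged 81 ± 5.91 with 1 read in scramble. MIR4435-2HG fell from 258 ± 23.3 to 122.4 ± 36.1, CYTOR from 183.3 ± 15.4 to 93.6 ± 4.8 and FAM222A-AS1 from 65.1 ± 7.24 to 30.9 ± 4.16. MIR4435-2HG and CYTOR are near-identical copies on chromosome 2, so reads may be split between them, and the strand setting of the counting is not given for the antisense genes. PRKG1-AS1 fell from 38.3 ± 4.53 to 19.8 ± 11.2 (adjusted p = 0.0211 in limma), and the call was lost when CR3 library 2 or 3 or scramble library 1 or 2 was left out, with adjusted p of 0.129, 0.0589, 0.0667 and 0.0568.

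On chromosome X, 190 of 508 genes (37.4%) were higher and 54 (10.6%) lower, beside 19.6% and 18.8% over all genes. On X lie 42 genes of the silent-to-present class, which could pass the filter only through CR3. The share of higher genes there is thus partly set by the filter. On chromosome 22, 26.4% were higher and 9.64% lower, and on chromosome 8, 16.4% were higher and 25.9% lower. Among genes above 100 normalized reads in scramble, the median log2 fold change was 0.08 on X (346 genes), 0.05 on 22 (272) and -0.09 on 8 (388). The copy number of these chromosomes was not analysed here.

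**Figure D5:**
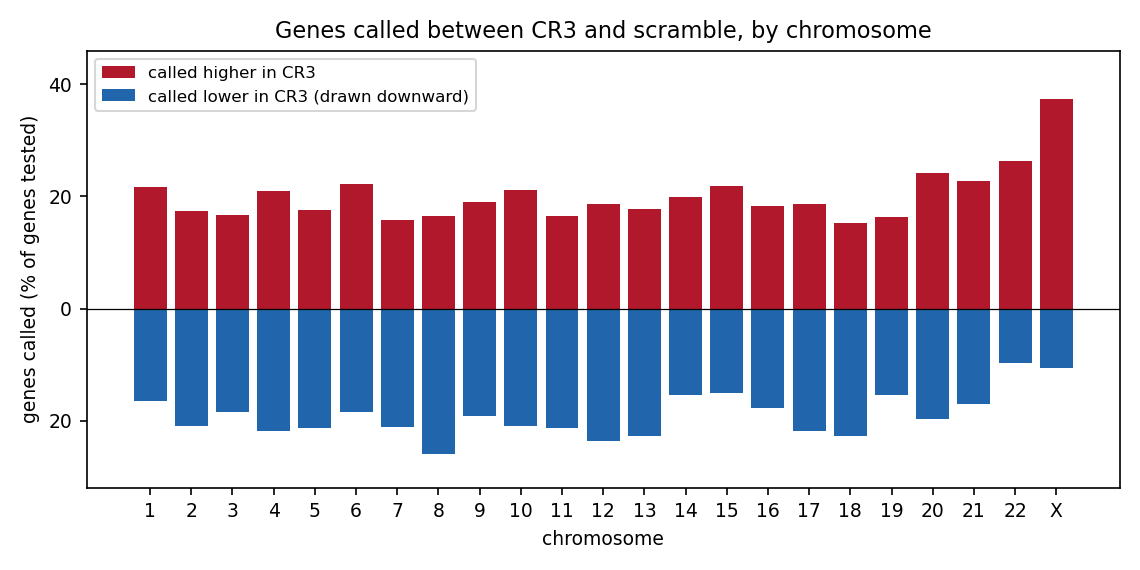
Share of genes tested that were higher (red, upward) or lower (blue, downward) in CR3 (y, percent of genes tested) on chromosomes 1 to 22 and X (x). The mitochondrial genome and Y are not drawn. Among those drawn, chromosome X has the tallest red bar (37.4%), and chromosome 8 the longest blue bar (25.9%). The red bars include genes that could pass the filter only through CR3.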

How the data were processed

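The 12 libraries were read from 1 deposited table. The deposited values are another unit than reads: each is a read number divided by a size factor, and values of 1 or more had lost their decimal mark. The submitters' processing notes name STAR, featureCounts, DESeq2, edgeR, Salmon, GATK, Trim Galore, FastQC, MultiQC and GRCh38, without roles. The annotation release and the strand setting of the counting are not named in these sources. Dividing each value by that of 1 read gave a whole number times a power of 10 in 100% of 265152 cells (tolerance 1e-07). The power was chosen by likelihood from all libraries and their groups. It was ambiguous (likelihood ratio under 20) in 0.447% of the cells of the 6 libraries. It was right in 98.6% of 4998 cells whose mark was kept but hidden. All of those cells held 1 read, so that share does not measure how well the power was chosen at higher levels. Its priors were set after restored reads had been seen, and 2 earlier settings are alternatives.

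Genes with 10 or more reads in 3 of the 6 libraries and no ambiguous cell were tested with limma 3.58.1 in R 4.3.3 (trend, log2 of normalized reads + 1, 4-group model of all 12 libraries, Benjamini-Hochberg under 0.05). The restoration and the fit were also run on simulated reads. Their spread between libraries was a set value, not that of these libraries. That run does not show how well the steps work here. Replicate numbers were not treated as pairs, and edgeR and DESeq2 were not run on these values. Symbols matched 52526 identifiers. Named genes were called, had a symbol, averaged at least 1 CPM and did not overlap between the groups: those with the largest log2 fold changes (12 a direction), the largest differences in level (8), up to 6 where scramble stood apart, 4 noncoding RNAs and up to 3 of each of the 44 lists by smallest p. Other names were chosen after their values were seen, and some genes the rule picks are not reported here. The members and lists were chosen with earlier results of these data known.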

Additional observations from a re-analysis of the deposited data

How the results depend on the processing

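Of the 5921 calls, 79.9% to 86.8% were kept when 1 of the 6 libraries was left out (4810 to 5552 genes called, 2432 to 2810 higher and 2373 to 2742 lower, 908 to 940 at least 2-fold higher and 53 to 78 at least 2-fold lower). With no filter beyond 1 read, 1612 genes were at least 2-fold higher and 156 lower, and with a mean of 20 or more reads 521 and 21. With library totals, 4580 were higher and 1803 lower. Restoring the reads without the group labels assumed the same level for all libraries. It left 603 genes at least 2-fold higher and turned 20 calls around. A further 210 of the 5921 calls were not tested in that setting, so the 603 also reflects genes left out. The sign was reversed for RASGRF2 (0.50), IL20RB (0.63), VIM (-0.015) and DMC1 (-0.22). How much of these changes came from the assumption of the same level was not tested. The class present in CR3 held 223 genes where silence meant 0 reads and 197 where presence meant 30 reads, and the class present in scramble then held 4. Same-numbered CR3 and scramble libraries had deviations that correlated at 0.0558, 0.0391 and 0.0195, and those with different numbers at -0.0699 to 0.0415. The numbers were not taken as pairs. CR3 library 3 correlated best with scramble library 2 (0.0415). The replicate block gave 5573 calls (2850 higher, 2723 lower, 910 and 53 at least 2-fold). In the 6 libraries alone there were 6573 calls with the block and 6199 without it. The limma-voom weights, the block in 6 libraries and the earlier restoration priors were added after the data were seen, and kept 98.1% to 99.9% of the calls. Runs with edgeR and DESeq2 were planned and not run, because the deposited values are not counts.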
